A study of Xenopus tropicalis with 24 samples.

Results

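Of the 26531 genes counted in tadpole intestine and tail of the frog Xenopus tropicalis, 10 are described here because the wild type counted them and the knockout almost did not. They are tap1, nobox, svep1l, retn.1 and 6 genes known by a locus symbol, LOC100485711, LOC116406716, LOC100496324, LOC105948180, LOC108644447 and LOC105947979. The genes were selected on their counts in WT control, WT T3 and TRDKO control. Each of the 10 was, in at least 1 organ, present in both wild-type groups and near absent in the knockout kept without hormone. Other genes met this as well, and the 10 are a part of them. The knockout, made in both thyroid hormone receptor genes, is labelled TRDKO, and the animals it is set against are wild type (WT). Tadpoles at stage 54 of both genotypes received 5 nM T3, the active thyroid hormone, or no treatment (control) for 18 h at 25 °C. The groups of each organ were therefore TRDKO T3, TRDKO control, WT T3 and WT control, with 3 libraries each and 24 in all. The labels give neither the alleles of the knockout nor the strain, family or sex of the animals. Since the near absence in TRDKO control was the reason for choosing the genes, it is given below as values with no test. Tests are given where the choice left the answer free, which holds for the direction of the T3 effect within WT, the tail levels of retn.1, and the neighbouring genes.

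TAP1 forms with TAP2 the transporter that carries peptides into the endoplasmic reticulum, where they are loaded onto MHC class I molecules. The peptides come from proteasomes that carry inducible subunits such as PSMB8 and PSMB9. In the frog Xenopus laevis the class I, TAP and proteasome genes lie close together and are known to occur in diverged allelic lineages. NOBOX is a homeobox transcription factor of oocytes in mammals. SVEP1 is a large secreted protein of the extracellular matrix, to whose symbol that of svep1l refers. The symbol retn.1 is that of resistin, a small secreted hormone in mammals, but the annotation lists retn.1 as a long non-coding RNA, and no function is given to it here. The annotation lists the 6 locus symbols without a function as well. Of all 10 genes 8 are annotated as protein-coding, and retn.1 and LOC105947979 as long non-coding RNAs.

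Library totals ranged from 17577407 to 24699154 counted fragments. Levels are CPM, counts scaled by trimmed means of M values to a common library total. Replicates differed little more than sampling noise. Whether they came from separate animals is not labelled, so the p-values here cover the spread among libraries, and that spread may be technical. In tail WT control, replicates 1 and 3 agreed within that noise (mean chi-square of 1.01 over genes) and were counted as 1 sample. That group therefore has n = 2. Intestine TRDKO T3 replicate 3 stood apart from the other replicates of its group (mean chi-square 22.8 and 27.6). Both receptor genes, thra on chromosome 10 and thrb on chromosome 6, were counted in every TRDKO library, and counts per gene do not show the edited sites. In intestine thra had 5.15, 5.55 and 5.00 CPM in TRDKO control and 8.25, 10.3 and 10.7 CPM in WT control. Summed markers of intestine ranged from 7658 to 12707 CPM in intestine libraries. In tail they were 49.2 to 49.8 CPM in TRDKO control and 1.21 to 1.82 CPM in WT control. In bulk tissue, fewer cells of a type and less RNA per cell cannot be told apart.

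All 10 genes met the choice in intestine and 6 of them in tail. Read as numbers, the choice asked for at least 1 CPM in WT control and WT T3 and for a TRDKO control mean of at most 1/20 of the lower WT mean. Of 13376 intestinal genes at that WT level 29 met it, or 0.217%, and of 14349 tail genes 24 met it, or 0.167%. Among these 10 genes, 5 had no count in any of the 6 intestine TRDKO libraries, and 4, tap1, LOC100485711, LOC116406716 and LOC105947979, had none in any of the 12 TRDKO libraries of both organs. No count in a group allows up to 0.0472 CPM in intestine TRDKO control and up to 0.0388 CPM in tail TRDKO control, counting error only. Nearest the limit on the inside was LOC108644447 in tail, at 4.99% of the lower WT mean. Just outside was LOC105948180 in tail, at 6.05% of a WT control level of 0.843 CPM. In tail retn.1 was at 133% of the lower WT mean, and svep1l and LOC100496324 had no count in any of the 6 WT libraries.

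**Figure D1:**
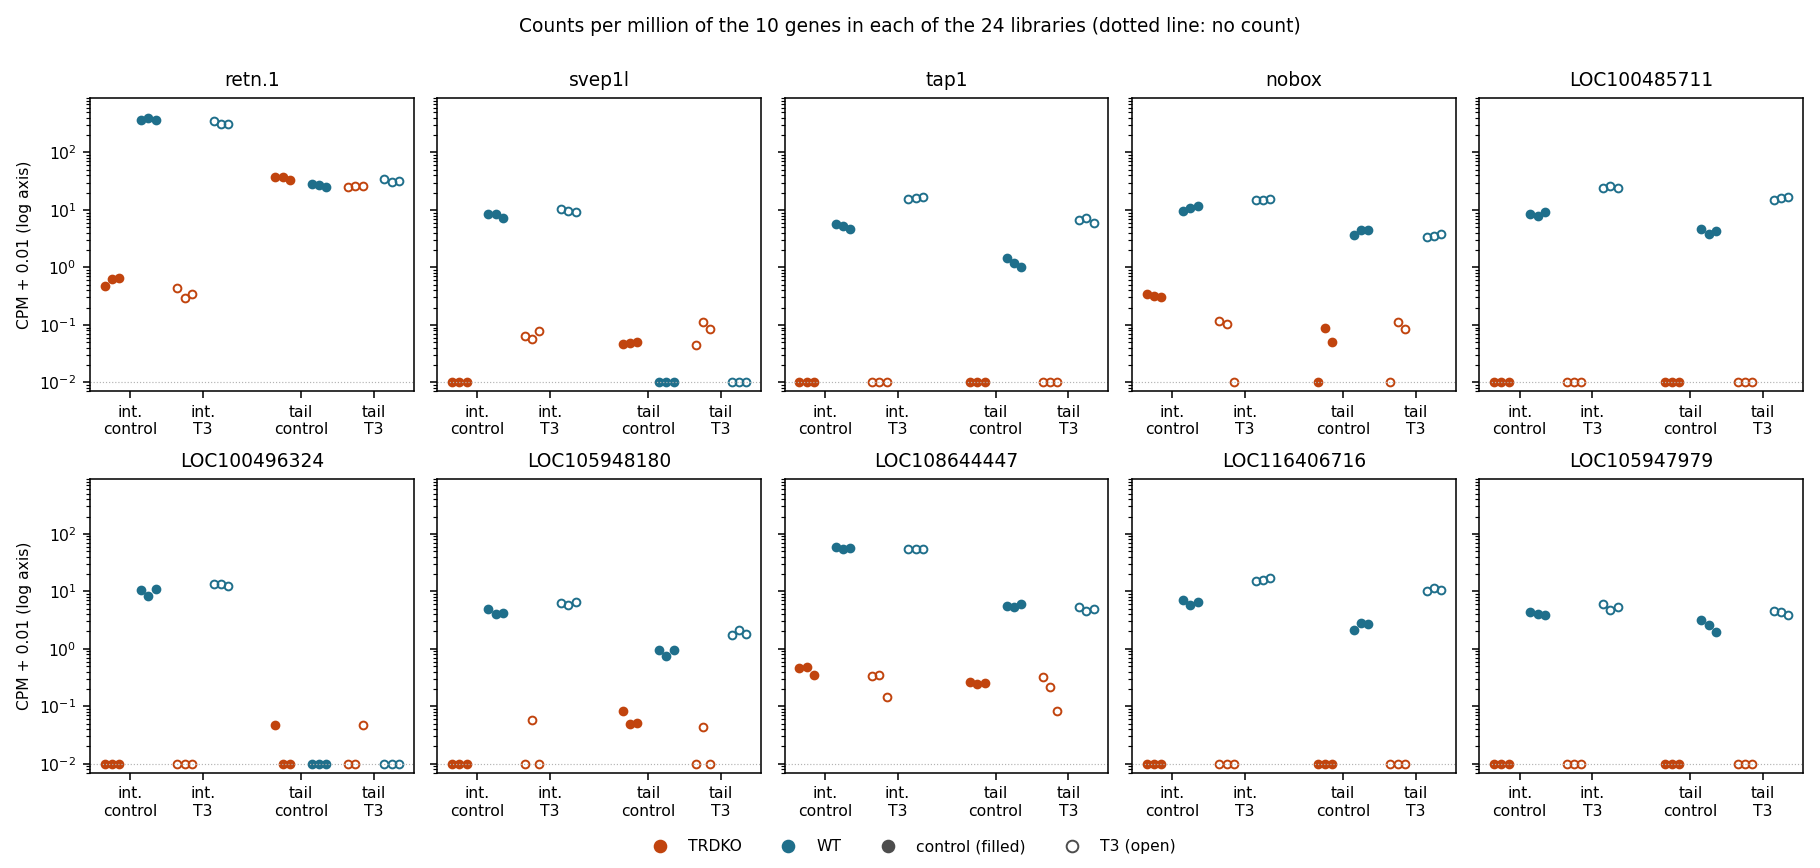
Level of each of the 10 genes in every library (CPM + 0.01, log axis; points are libraries, TRDKO left of WT within each treatment, filled for control and open for T3, and the dotted line marks libraries with no count). In intestine every WT library lies above every TRDKO library for each gene, which for TRDKO control follows from the choice. In tail retn.1 is counted at 25.2 to 37.5 CPM in both genotypes, and svep1l and LOC100496324 lack counts in WT.

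The genes lie at 7 places on 3 chromosomes of the XENTR_10.0 assembly, given here with coordinates from the deposited annotation. Chromosome 8 holds 7 genes at 4 places, which spread over 105 Mb. The first is LOC105948180 at chr8:39087572-39090633 on the plus strand. The second, 34.2 Mb further, is the block of LOC100485711 (chr8:73308043-73331250, plus strand), tap1 (chr8:73337158-73376843, minus strand) and LOC116406716 (chr8:73376952-73410419, plus strand). Within it tap1 ends 108 bases before LOC116406716 begins and 5907 bases separate it from LOC100485711, so no other counted gene starts between them. The third is the pair LOC100496324 (chr8:136110738-136125937) and svep1l (chr8:136128854-136142588), both on the plus strand and 2916 bases apart. From the end of tap1 to the start of svep1l are 62.8 Mb. The fourth, 7.69 Mb on, is LOC108644447 at chr8:143836051-143867754 on the plus strand. On chromosome 7 nobox (chr7:878102-889400) and LOC105947979 (chr7:127911135-127916645), are both on the plus strand and far apart. On chromosome 1 retn.1 spans chr1:215081540-215146827 on the minus strand, of which 747 bases are exon.

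The tap1 block was counted only in WT, in both organs, and its 3 genes had higher levels in WT T3 than in WT control. In intestine tap1 had no count in the 3 TRDKO control libraries, against 5.61, 5.35 and 4.74 CPM in WT control. It again had no count in TRDKO T3, against 15.7, 15.8 and 17.1 CPM in WT T3. In tail, tap1 had no count in either TRDKO group, with 6.60, 7.13 and 6.04 CPM in WT T3 and 1.48, 1.20 and 1.01 CPM in WT control. The genotypes did not overlap in either organ, which for TRDKO control follows from the choice. With no count taken as a floor of 3 counts over the group, tap1 was at least 111-fold lower in TRDKO control and at least 292-fold lower in TRDKO T3 than in the WT intestine at the same treatment, and at least 31.7-fold and at least 188-fold lower in tail.

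LOC100485711, to the left of tap1 on the plus strand, had 24.4, 25.6 and 24.1 CPM in intestine WT T3 and 8.62, 7.80 and 9.06 CPM in WT control. In tail it had 14.8, 16.4 and 16.7 CPM in WT T3 and 4.73, 3.79 and 4.38 CPM in WT control. No TRDKO library of either organ held a count of it, which puts TRDKO control at least 181-fold lower in intestine and at least 111-fold lower in tail. LOC116406716, on the other side of tap1, had 14.9, 15.9 and 16.8 CPM in intestine WT T3 and 7.02, 5.85 and 6.62 CPM in WT control. Its tail values were 10.2, 11.5 and 10.7 CPM in WT T3 and 2.12, 2.82 and 2.72 CPM in WT control. It too had no count in TRDKO, at least 139-fold lower in intestine and at least 66.0-fold lower in tail without hormone. Across the 24 libraries the 3 genes of the block had Pearson correlations of log2 CPM of 0.994 between tap1 and LOC116406716 and 0.999 between LOC100485711 and LOC116406716. These points share their libraries and the genotype split, so the correlations are a description.

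Other genes around the block were not absent in TRDKO. Of 10 other genes described within 250 kb of tap1, 7 were counted in every library of both genotypes and 3 had at most 3 counts in any library of either. PSMB9, the inducible proteasome subunit encoded by psmb9 in this region, was counted in every group. In intestine psmb9 averaged 4.92 CPM in TRDKO control and 5.68 CPM in WT control, and did not pass the test (log2 fold change -0.25 ± 0.13 SE, adjusted p = 0.11 by edgeR's quasi-likelihood test), although it passed without TRDKO T3 replicate 3 (-0.26) and without WT control replicate 1 (-0.36). Under T3 it averaged 6.202 CPM in TRDKO and 18.997 CPM in WT (-1.62 ± 0.11, adjusted p = 3.3e-08), beside 49.4% of all genes called. In tail psmb9 was higher in TRDKO control (3.31 CPM) than in WT control (1.32 CPM) by 1.38 ± 0.17 on the log2 scale (edgeR, adjusted p = 1.5e-11), and lower in TRDKO T3 (2.55 CPM) than in WT T3 (5.72 CPM) by a log2 fold change of -1.15 ± 0.12 (adjusted p = 4.5e-14), beside 65.5% of all genes called. The T3 effect on psmb9 in TRDKO was 0.32 ± 0.13 in intestine, which did not pass (edgeR, adjusted p = 0.058) but passed without TRDKO T3 replicate 1 (0.40), without WT control replicate 1 (0.33) and without WT control replicate 3 (0.34). In TRDKO tail it was -0.37 ± 0.13 (edgeR, adjusted p = 0.014), a fall whose call was lost with DESeq2 (-0.38), without TRDKO T3 replicate 3 (-0.32) and without TRDKO control replicate 1 (-0.29). In WT psmb9 rose with T3 in both organs, by 1.69 ± 0.11 in intestine and 2.16 ± 0.16 in tail. The TRDKO effect minus the WT effect was -1.37 ± 0.17 in intestine and -2.53 ± 0.21 in tail (edgeR interaction, adjusted p = 1.4e-05 and 3.7e-19), beside 52.3% and 65.6% of all genes called.

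Partners of TAP1 on unplaced scaffolds of the assembly ran the other way. TAP2, the second subunit of the transporter, is encoded by tap2 on Sca11, where tap2 averaged 9.77 CPM in intestine TRDKO control and 4.37 CPM in WT control (log2 fold change 1.12 ± 0.14, adjusted p = 1.3e-05 by edgeR). In tail tap2 averaged 4.95 CPM in TRDKO control and 2.69 CPM in WT control (0.86 ± 0.13, adjusted p = 1e-08). PSMB8 is another inducible proteasome subunit, and psmb8 on Sca23 averaged 27.98 CPM in intestine TRDKO control and 13.5 CPM in WT control (1.00 ± 0.08, adjusted p = 1.6e-07). In tail psmb8 averaged 16.5 CPM in TRDKO control and 5.21 CPM in WT control (1.67 ± 0.08, adjusted p = 5.6e-33). The psmb8 neighbour LOC116408208 was higher in TRDKO control as well, by 1.77 ± 0.14 in intestine and 1.22 ± 0.17 in tail. TRDKO tissue therefore held fragments of tap2 and psmb8 and none assigned to tap1.

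**Figure D2:**
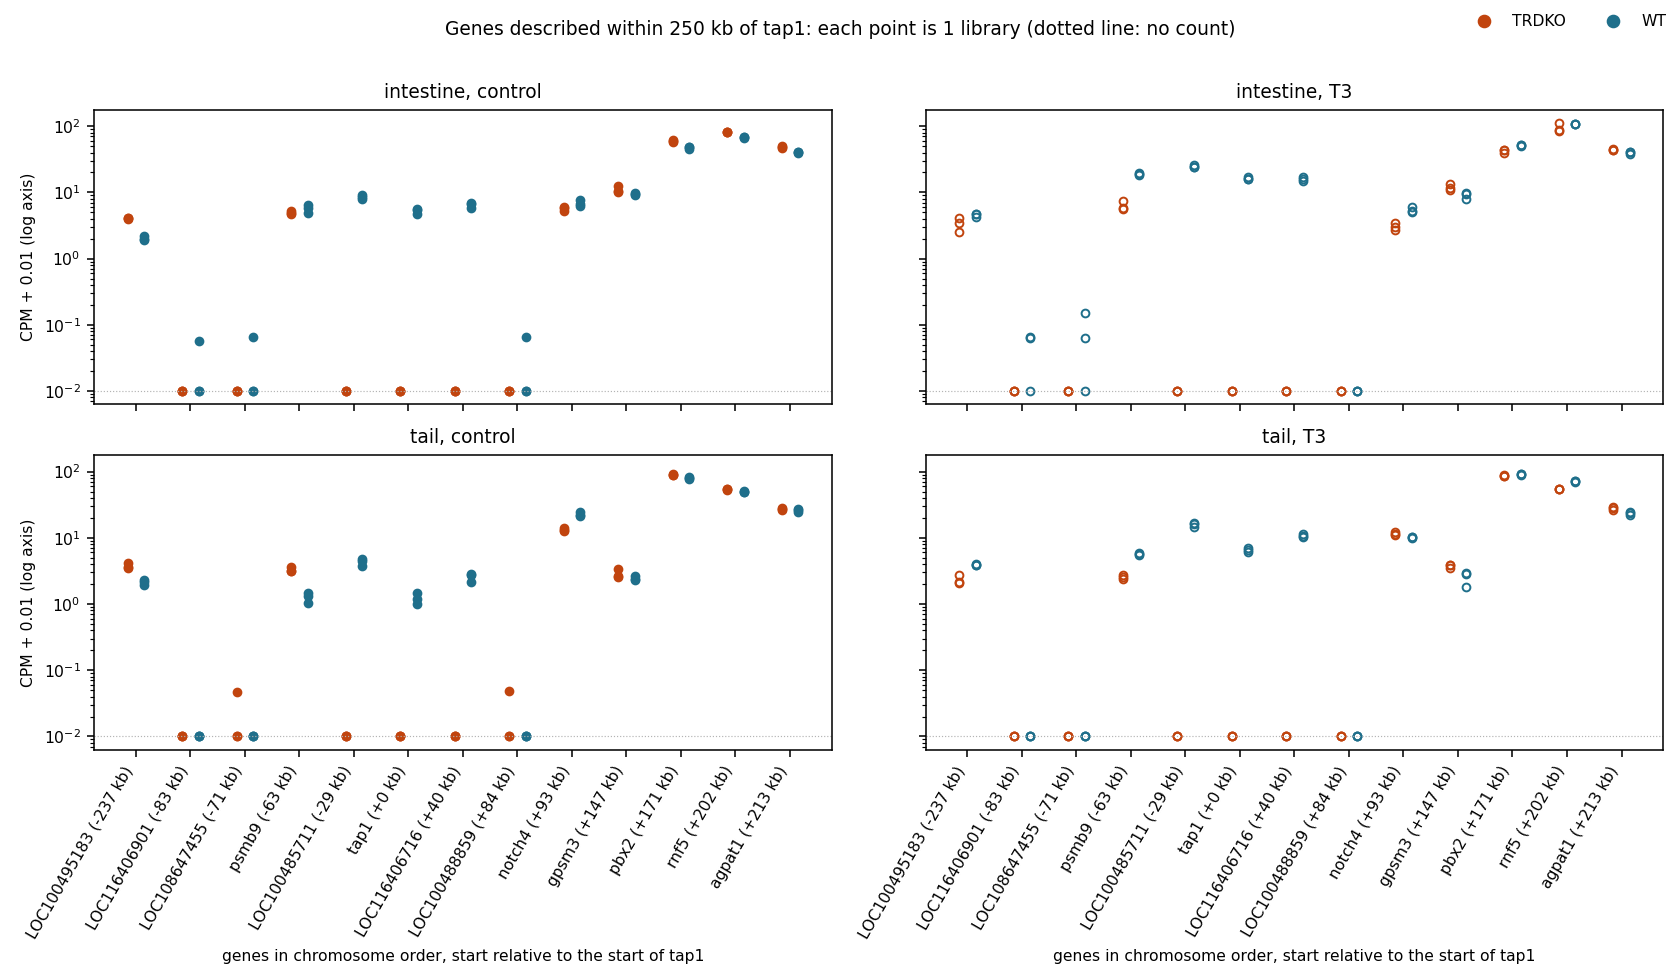
Levels of genes within 250 kb of tap1 in chromosome order (CPM + 0.01, log axis; points are libraries, TRDKO left of WT, and the dotted line marks libraries with no count), with 1 panel for each organ and treatment. The 3 genes of the tap1 block have no count in TRDKO, while psmb9 and notch4 are counted in every library of both genotypes.

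Other genes of antigen presentation were read from a list of 30 symbols, of which 21 were in the table and 20 were tested. Without hormone, 7 were higher in TRDKO intestine, 4 were lower and 9 did not pass, beside 57.8% of all genes called, with a list median of 0.11 and a median over all genes of 0.01. In tail 15 were higher in TRDKO control, 2 were lower and 3 did not pass, beside 73.1% of all genes called (median 0.24). Lymphocyte markers, of which 8 of 10 were in the table, summed to 22.8 to 27.3 CPM in intestine TRDKO control and 24.7 to 25.0 CPM in WT control. Markers of macrophages and granulocytes, of which 4 of 7 were in the table, summed to 55.6 to 57.5 CPM in intestine TRDKO control and 43.3 to 46.5 CPM in WT control. Both marker lists were counted in the intestine TRDKO control libraries. The part of these cells in the tap1 values was not tested.

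The pair LOC100496324 and svep1l was an intestinal pair in WT. In intestine svep1l had no count in TRDKO control, against 8.39, 8.36 and 7.27 CPM in WT control. Each of the 3 TRDKO T3 libraries held 1 count of svep1l, against 10.2, 9.66 and 9.02 CPM in WT T3. This amounts to at least 169-fold lower without hormone, and to a WT over TRDKO ratio of 173 under T3 with an exact 95% counting interval of 58.9 to 842. Such intervals, here and below, leave out the spread among libraries and the choice of the genes, and are not a test. LOC100496324 had no count in the 6 intestine TRDKO libraries, against 13.4, 13.3 and 12.5 CPM in WT T3 and 10.7, 8.19 and 10.98 CPM in WT control. It was at least 213-fold lower in TRDKO control and at least 235-fold lower in TRDKO T3. In tail the direction was the other way at trace level, with 1, 1 and 1 counts of svep1l in TRDKO control, 1, 3 and 2 counts in TRDKO T3 and none in the 6 WT libraries. LOC100496324 had 1 count in 1 library of each TRDKO tail group and none in WT tail. These tail counts are at or near the 3-count floor and are given no fold. They stood beside the higher sum of intestine markers in TRDKO tail, given above without hormone. Under T3 that sum was 5.52 to 5.84 CPM in TRDKO tail and 2.20 to 2.33 CPM in WT tail. The TRDKO intestine libraries themselves held no count of LOC100496324, and of svep1l only the single counts under T3 given above. The part of intestine in the tail counts was not tested.

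The 2 genes to the right of svep1l had lower values in intestine TRDKO control than in WT control, and were counted in tail TRDKO control but not in tail WT control. LOC100497496 had no count in intestine TRDKO control and averaged 0.527 ± 0.198 CPM in WT control (SD, n = 3 each), while in tail it averaged 0.451 ± 0.0851 CPM in TRDKO control and had no count in WT. LOC100497803 averaged 0.0651 CPM in intestine TRDKO control and 0.657 CPM in WT control (log2 fold change -3.33 ± 0.45, adjusted p = 2.2e-05 by edgeR). In tail LOC100497803 had 57 counts over the 3 TRDKO control libraries, or 0.739 CPM, and none in WT control, at least 15.2-fold higher in TRDKO. Further right on chromosome 8, LOC100488866 met the numerical choice in intestine, with 0.295 CPM in TRDKO control and 20.6 CPM in WT control. The gene svep1 itself lies on chromosome 1 and averaged 13.6 ± 0.167 CPM in intestine TRDKO control and 12.5 ± 0.801 CPM in WT control (SD, n = 3 each).

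The most abundant of the 10 genes was retn.1, and its genotype difference depended on the organ. In intestine retn.1 had 0.457, 0.628 and 0.637 CPM in TRDKO control, from 11, 12 and 13 counts, against 370.0, 402 and 368 CPM in WT control. Under T3 it had 0.436, 0.286 and 0.340 CPM in TRDKO and 347, 315 and 310.4 CPM in WT. WT exceeded TRDKO by 669-fold without hormone (exact 95% counting interval 483 to 956) and by 919-fold under T3 (588 to 1526). In tail, where retn.1 was not chosen, it had 36.7, 37.5 and 33.5 CPM in TRDKO control and 27.9, 27.4 and 25.5 CPM in WT control. Under T3 the tail values were 25.2, 26.5 and 26.3 CPM in TRDKO and 35.0, 30.5 and 31.3 CPM in WT. The TRDKO tail libraries thus lay above WT without hormone and below WT under T3.

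By edgeR's quasi-likelihood test retn.1 was higher in tail TRDKO control by 0.42 ± 0.05 on the log2 scale (adjusted p = 1.8e-12), where 36.4% of all genes were called higher. It was lower in tail TRDKO T3, at -0.30 ± 0.05 (adjusted p = 6.1e-08), where 31.4% were called lower. With T3 retn.1 was lower in TRDKO tail (-0.46 ± 0.04, adjusted p = 3.8e-15, beside 26.2% of all genes called lower) and higher in WT tail (0.27 ± 0.05, adjusted p = 6e-06), and the 2 effects differed by -0.72 ± 0.07 (interaction, adjusted p = 5.5e-16, beside 65.6% of all genes called). These tail values are small beside the 669-fold difference in intestine. The left neighbour LOC116408250 was lower in intestine TRDKO control too, at 1.95 CPM against 18.9 CPM in WT control (-3.32 ± 0.12, adjusted p = 1.4e-11 by edgeR). In tail LOC116408250 averaged 0.325 CPM in TRDKO control and 0.315 CPM in WT control. On the opposite strand LOC101730266 starts inside the retn.1 span, and it averaged 2.82 CPM in intestine TRDKO control and 2.89 CPM in WT control. Counting was reverse-stranded per the file headers, which assigns the strands separately.

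For nobox a few counts remained in TRDKO. In intestine it had 0.332, 0.314 and 0.294 CPM in TRDKO control, from 8, 6 and 6 counts, against 9.53, 10.6 and 11.5 CPM in WT control. TRDKO T3 held 2, 2 and 0 counts of nobox, and WT T3 had 14.7, 14.8 and 15.5 CPM. In tail TRDKO held 0, 2 and 1 counts without hormone and 0, 3 and 2 under T3, against 3.42, 3.51 and 3.78 CPM in WT T3 and 3.69, 4.39 and 4.48 CPM in WT control. WT exceeded TRDKO by 33.6-fold in intestine without hormone (exact 95% counting interval 21.6 to 55.3) and by 108-fold in tail (36.6 to 528). Summed germ line markers, with 10 of 11 in the table, were 1.57 to 1.96 CPM in intestine TRDKO control and 3.05 to 3.56 CPM in WT control. Under T3 the intestine sums were 2.11 to 2.81 CPM in TRDKO and 1.95 to 2.47 CPM in WT. In tail the germ line sum was 0.219 to 0.406 CPM in TRDKO control and 0.906 to 1.48 CPM in WT control. Under T3 the tail sums were 0.296 to 0.479 CPM in TRDKO and 1.19 to 1.72 CPM in WT. A longer germ line and oocyte list had 9 genes outside the set tested in intestine. Without hormone 3 were higher in TRDKO, 3 were lower and 3 did not pass, beside 57.8% of all genes called. In tail 3 of 11 were higher, 2 were lower and 6 did not pass, beside 73.1%. In intestine dazl, gdf9 and bmp15 had no count in TRDKO control or WT control, and zar1 had none in WT control, and the part of germ cells in the nobox values was not tested. The chloride channel gene clcn1 beside nobox averaged 10.7 CPM in intestine TRDKO control and 11.1 CPM in WT control. The focal adhesion gene zyx averaged 92.9 CPM in intestine TRDKO control and 91.4 CPM in WT control. In tail both had lower means in TRDKO control, clcn1 with 27.3 CPM against 36.6 CPM in WT control and zyx with 145 CPM against 171 CPM.

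LOC108644447, the longest by exon with 4854 bases, kept a small level in every TRDKO library. In intestine it had 0.457, 0.471 and 0.343 CPM in TRDKO control and 59.6, 55.2 and 57.3 CPM in WT control. Under T3 it had 0.327, 0.334 and 0.136 CPM in TRDKO intestine and 53.5, 54.1 and 54.3 CPM in WT. In tail the TRDKO control values were 0.256, 0.236 and 0.244 CPM, against 5.62, 5.41 and 6.04 CPM in WT control. The WT control mean was thus higher in intestine (57.4 ± 2.17 CPM, SD, n = 3) than in tail (5.62 ± 0.296 CPM, SD, n = 2), whereas the TRDKO control means were 0.424 ± 0.0702 and 0.245 ± 0.0102 CPM (SD, n = 3 each). WT exceeded TRDKO by 135-fold in intestine without hormone (exact 95% counting interval 92.9 to 206) and by 23.1-fold in tail (14.6 to 38.9). Its neighbours differed far less. LOC100145515 averaged 8.43 CPM in intestine TRDKO control and 16.8 CPM in WT control (log2 fold change -1.04 ± 0.08), and LOC100488697 averaged 0.919 CPM in TRDKO control and 2.01 CPM in WT control (-1.15 ± 0.25, adjusted p = 0.0013 by edgeR).

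LOC105948180 and LOC105947979 had 3.90 to 6.50 CPM in WT intestine, not corrected for length. LOC105948180 had no count in intestine TRDKO control, against 4.83, 3.96 and 4.18 CPM in WT control, at least 92.1-fold lower. TRDKO T3 held 0, 1 and 0 counts of it, against 6.34, 5.87 and 6.50 CPM in WT T3. In tail, where LOC105948180 was not chosen, TRDKO control held 2, 1 and 1 counts and WT control had 0.936, 0.739 and 0.956 CPM. Tail TRDKO T3 held 0, 1 and 0 counts, against 1.74, 2.13 and 1.82 CPM in WT T3. The tail count ratio without hormone, WT over TRDKO, was 16.9 (exact 95% counting interval 6.24 to 64.3), given with no test because LOC105948180 passed the filter on low counts only through its WT libraries. The non-coding LOC105947979 had no count in any TRDKO library. Its intestine values were 6.12, 4.74 and 5.30 CPM in WT T3 and 4.33, 3.96 and 3.90 CPM in WT control, and its tail values 4.57, 4.40 and 3.88 CPM in WT T3 and 3.202, 2.59 and 1.96 CPM in WT control. It was at least 86.2-fold lower in intestine TRDKO control and at least 66.8-fold lower in tail TRDKO control. Its neighbour LOC116412020 was lower in tail TRDKO control as well (27.2 CPM against 65.0 CPM in WT control, -1.23 ± 0.04), whereas LOC116412021 was higher (2.27 CPM against 0.448 CPM in WT control, 2.22 ± 0.24).

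Per kilobase of exon, the scale on which levels of different genes can be set side by side, retn.1 led the set in WT control intestine with 509 CPM per kilobase. LOC108644447 followed with 11.8 CPM per kilobase, and the other 8 genes lay between 1.91 for LOC116406716 and 6.29 for LOC100485711. In WT control tail retn.1 stood at 36.2 CPM per kilobase, next came LOC105947979 with 3.73, and svep1l and LOC100496324 had no count.

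The choice left free the direction of the response to T3 within WT. It used the same WT values and asked for presence in both WT groups, so a gene absent from either could not be chosen. In intestine 7 of the 10 genes were higher in WT T3 than in WT control, 2 were lower and svep1l did not pass (0.22 ± 0.09, adjusted p = 0.054), beside 30.3% of all genes called higher and 30.3% called lower. The median over the 10 genes was 0.40 on the log2 scale, and over all genes 0.01. The largest rises were those of the tap1 block, with 1.58 ± 0.10 for tap1 (adjusted p = 3.6e-07), 1.49 ± 0.08 for LOC100485711 (1.8e-07) and 1.23 ± 0.10 for LOC116406716 (2.7e-06). Smaller rises were 0.47 ± 0.12 for LOC105948180 (adjusted p = 0.0048), 0.46 ± 0.09 for nobox (0.00078), 0.35 ± 0.13 for LOC105947979 (0.039) and 0.33 ± 0.11 for LOC100496324 (0.027). The falls were -0.28 ± 0.05 for retn.1 (adjusted p = 0.00056) and -0.14 ± 0.06 for LOC108644447 (0.046). All these p-values are from edgeR's quasi-likelihood test. The call of LOC108644447 was lost in 13 of the alternative fits, that of LOC105947979 in 6 and that of LOC100496324 in 3.

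In tail 8 of the 10 genes had enough counts to be tested, and all but retn.1 passed that filter on their WT libraries alone. T3 raised 6 of them in WT, lowered none and left nobox and LOC108644447 short of the threshold, beside 35.4% of all genes called higher and 33.5% called lower. The block again led, with 2.42 ± 0.16 for tap1, 2.09 ± 0.12 for LOC116406716 and 1.91 ± 0.09 for LOC100485711. LOC105948180 followed with 1.12 ± 0.23, LOC105947979 with 0.73 ± 0.14 and retn.1 with the 0.27 given above. The values that did not pass were -0.22 ± 0.14 for nobox (edgeR, adjusted p = 0.14) and -0.20 ± 0.12 for LOC108644447 (0.12). In TRDKO the T3 effect on the block could not be measured, because the genes had no count there.

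**Figure D3:**
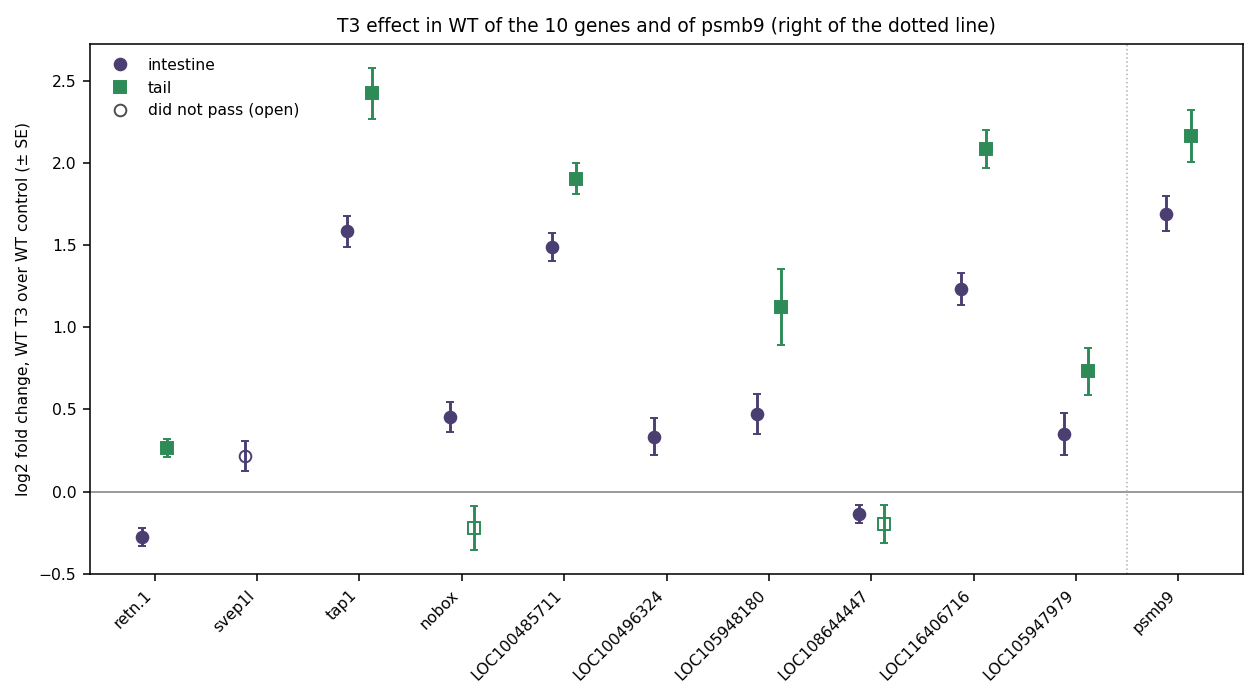
Effect of T3 within WT on each gene and on psmb9, right of the dotted line (log2 fold change, WT T3 over WT control, with bars of 1 SE), in intestine and tail, with open symbols for values that did not pass the test. The 3 genes of the tap1 block have the highest values of the 10 genes in both organs, from 1.23 to 1.58 in intestine and from 1.91 to 2.42 in tail, while retn.1 is negative in intestine and positive in tail.

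Several genes of antigen presentation, among them class II genes, were also higher in WT with T3. Of the 20 tested genes of antigen presentation, 15 were higher in intestine WT T3, 1 was lower and 4 did not pass, beside 30.3% of all genes called higher, with a list median of 0.52 beside 0.01 over all genes. The class II transactivator gene ciita rose by 1.89 ± 0.16, psmb9 by 1.69 ± 0.11, and cd74, which encodes the invariant chain of class II, by 0.95 ± 0.05. The gene that fell was canx, the chaperone calnexin (-0.44 ± 0.04). In tail 13 were higher, 3 were lower and 4 did not pass, beside 35.4% of all genes called higher, with a median of 0.30 beside 0.02 over all genes. There ciita rose by 2.92 ± 0.17, psmb9 by 2.16 ± 0.16 and cd74 by 1.37 ± 0.03, while calr, the chaperone calreticulin, had -0.68 ± 0.03. The TAP1 partner gene tap2 did not pass in intestine WT (-0.34 ± 0.17, adjusted p = 0.092 by edgeR). It was lower in tail WT T3 than in tail WT control (-0.62 ± 0.17, adjusted p = 0.0013 by edgeR). With T3 psmb8 rose by 0.26 ± 0.09 in intestine WT and did not pass in tail WT (0.05 ± 0.11). Lymphocyte markers summed to 32.7 to 35.8 CPM in intestine WT T3 and 24.7 to 25.0 CPM in WT control, but to 10.6 to 12.1 CPM in tail WT T3 and 13.5 to 15.3 CPM in tail WT control. Markers of macrophages and granulocytes summed to 70.8 to 77.2 CPM in intestine WT T3 and 43.3 to 46.5 CPM in WT control, and to 66.4 to 70.8 CPM in tail WT T3 and 68.4 to 68.9 CPM in tail WT control. The part of these cells in the rise of the tap1 block was not tested.

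The question of a chromosome 8 haplotype can be met here only with positions and levels, because counts per gene hold no base calls, and which alleles the animals carried was not tested. By the numerical reading of the choice, the 29 intestinal genes lay on 9 chromosomes, with 8 on chromosome 8 (0.504% of its 1586 genes at the WT level), 5 on chromosome 7 (0.466% of 1072) and 5 on chromosome 1. Those 5 on chromosome 1 lay close together around retn.1, with starts from 214451880 to 215343481. The 24 tail genes included 7 on chromosome 8 (0.414% of 1689) and 7 on chromosome 7 (0.593% of 1181). Of these, 24 of the 29 and 21 of the 24 were also near absent in TRDKO T3. In both organs 8 genes met the reading, which are the 6 genes of the set that met it in tail and 2 others, LOC108645441 on chromosome 3 and LOC100496293 on chromosome 4. LOC108645441 had no count in any TRDKO library, against 2.26 CPM in intestine WT T3 and 3.17 CPM in intestine WT control. Genes with this pattern thus lay on chromosome 8 and on several other chromosomes. In at least 1 organ 45 genes met the reading, and the 10 genes described are a part of these. Of the intestinal genes meeting it, the set holds 7 of the 8 on chromosome 8, 2 of the 5 on chromosome 7 and 1 of the 5 on chromosome 1. The share of chromosome 8 in the set is therefore not that among all genes meeting the reading. The receptor genes' own chromosomes held 2 of the 29 intestinal genes on chromosome 6 and 1 on chromosome 10, none of them among the 10 genes described.

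The surroundings of the genes were read within 1 Mb. In intestine 65.4% of 243 tested genes there were called between TRDKO control and WT control, beside 57.8% of all genes. At least 4-fold lower in TRDKO were 9.47% of them, beside 2.27% of all genes. Genes outside the set that met the same reading stayed in these shares, which are therefore not independent of the choice. These were unevenly spread, with 10 of 46 genes around retn.1 and 5 of 19 around LOC100496324 and svep1l, but 2 of 44 around the tap1 block and 1 of 57 around LOC108644447. Around nobox 9 of 20 genes were at least 4-fold higher in intestine TRDKO control, beside 2.25% of all genes. All 9 were near absent in WT control, and among them was prss2, a trypsinogen gene of the pancreas, with 114 CPM in TRDKO control and 0.0338 CPM in WT control. Whether the amount of pancreas in the samples differed between genotypes was not tested. In tail 4.01% of 274 genes were at least 4-fold lower in TRDKO, beside 1.8% of all genes, and 10.6% were at least 4-fold higher, beside 3.54%. Around retn.1 10 of 49 tail genes were at least 4-fold higher and none lower, and around nobox 9 of 24 were higher and 1 lower. Within 0.25 Mb the share at least 4-fold lower was 14.3% of 63 genes in intestine and 1.35% of 74 genes in tail, so that the tail share then lay under that of all genes. Shares over chromosome 8 as a whole leave out the 10 genes, of which 7 lie on it, and their difference from the other chromosomes was not tested. Without the 10 genes, 57.2% of the genes of chromosome 8 were called in intestine and 57.9% on the other chromosomes, and 74.2% and 72.9% in tail. At least 4-fold lower in TRDKO were 2.53% of its genes in intestine and 2.25% in tail, beside 2.16% and 1.7% on the other chromosomes. At least 4-fold higher were 2.36% in intestine and 3.29% in tail, beside 2.24% and 3.58%. Of the 28 nearest neighbours outside the set 16 were tested in intestine, where 2 were higher in TRDKO control, 6 were lower and 8 did not pass. Over all 15491 genes tested there, 4505 were higher and 4451 were lower. In tail 22 neighbours were tested, of which 8 were higher, 9 were lower and 5 did not pass, beside 6201 higher and 6234 lower of all 17018 genes.

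With the genotypes exchanged, 48 intestinal genes (0.354% of those at the TRDKO level) and 41 tail genes (0.281%) met the same reading, counted in TRDKO and near absent in WT control. Chromosome 7 held 17 of the 48 (1.55% of its 1100 genes) and chromosome 8 held 6. The 17 included the 9 genes beside nobox, prss2 among them, and 2 further enzyme genes of the pancreas, cela2a and ctrc. Apart from prss2, the genes beside nobox carry locus symbols, and no function is given to them here. The part of the amount of pancreas in this count was not tested. Of the 48, 6 were also near absent in intestine WT T3, and of the 41, 23 were also near absent in tail WT T3. The digestive enzyme gene cpa1, carboxypeptidase of the pancreas, averaged 1540 CPM in intestine TRDKO control and 0.390 CPM in WT control, with 71.2 CPM in TRDKO T3 and 259 CPM in WT T3. Markers of other organs among the exchanged genes, such as alb of liver and hbg1 of red cells, averaged 2.61 and 1.99 CPM in intestine TRDKO control and had no count in WT control. Of the 29 intestinal genes counted in WT and near absent in TRDKO control, 24 were also near absent in TRDKO T3, the 10 genes among them.

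**Figure D4:**
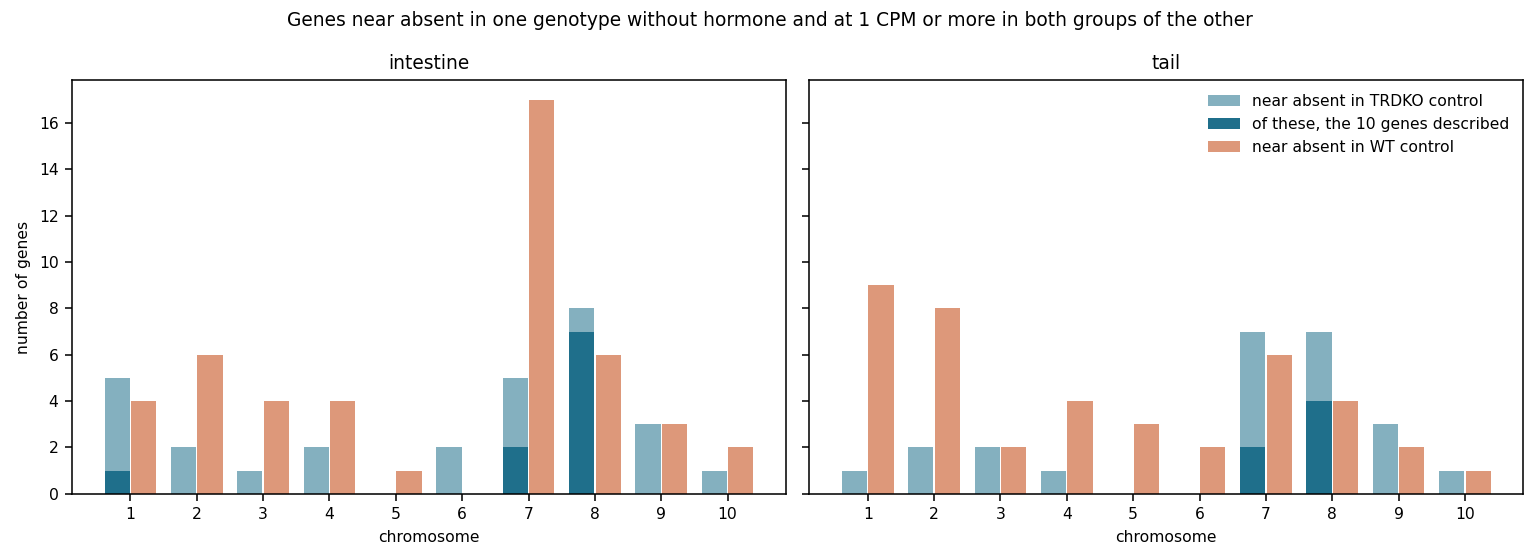
Number of genes per chromosome counted in WT and near absent in TRDKO control, and of genes with the genotypes exchanged, in intestine and tail, with darker bars for the 10 genes described. Chromosome 8 holds 8 of the 29 intestinal genes near absent in TRDKO, and chromosome 7 holds 17 of the 48 with the genotypes exchanged; genes on unplaced scaffolds are not drawn.

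By likeness of log2 CPM over the 24 libraries, the genes outside the set most like the mean of the 10 were LOC108645279 on chromosome 7 (Pearson r = 0.986), npsr1 on chromosome 6 (0.983), LOC116407547 on chromosome 9 (0.969), desi2l on chromosome 8 (0.957) and cpvl on chromosome 6 (0.954). LOC108645279 and npsr1 had no count in any TRDKO library. The points share their libraries and the genotype split, so these values describe the pattern and no shared function is implied.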

How the data were processed

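Per the labels' protocols, RNA was purified on columns, and 1 µg went into stranded libraries of total RNA. Per the submitters' processing notes, cutadapt 3.2, STAR 2.7.7a and featureCounts of Subread 2.0.1 were used. The deposited values are whole-number counts per gene, not normalized. Per the file headers, featureCounts ran in reverse-stranded mode on primary alignments, required both ends mapped and no chimera, and dropped duplicates, so reads of near-identical copies can be assigned to 1 copy.

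CPM used TMM factors over all 24 libraries. Each organ was fitted in R 4.3.3 with edgeR 4.0.16 (TMM, filterByExpr, 1 coefficient per group) by its robust quasi-likelihood F test over 15491 genes in intestine and 17018 in tail, with Benjamini-Hochberg adjustment over all of them and a threshold of 0.05. DESeq2 1.42.0, other scalings and filters, leave-outs and a replicate block were alternatives. Where a group had no count, folds were taken against a floor of 3 counts over that group. Intervals cover counting error only, in counts summed over a group. They leave out the spread among libraries and the choice of the genes, and are not a test. The fit was tried on simulated data with changes in WT T3 only and the same spread in both organs. That trial covers neither the genotype contrasts nor the smaller spread of tail.

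The members and lists were chosen with earlier results of these data known. Named besides them are the receptor genes, the 2 nearest genes on each side, genes meeting the choice or its exchange in both organs, the 5 most alike genes, and list members with the largest called changes. LOC100488866, prss2, cela2a, LOC108645441, LOC100496293 and the neighbours of tap2 and psmb8 fall outside this rule and were chosen after their values were seen. Protein matches were not analysed here. A gene result is not reported here.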

Additional observations from a re-analysis of the deposited data

Results flagged for a closer look

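For 3 genes the mean values went in opposite directions in the organs, and the difference between organs was not tested. For retn.1 the log2 fold change of TRDKO control against WT control was 0.42 in tail, while in intestine TRDKO control was far lower (0.574 CPM against 380.2 CPM in WT control), and its T3 effect in WT was 0.27 in tail beside -0.28 in intestine. For svep1l tail TRDKO averaged 0.0388 CPM without hormone and 0.0702 CPM under T3, both from at most 3 counts a library, beside no count in tail WT, which without hormone is at the 3-count floor in both genotypes. The T3 effect on nobox in WT was -0.22 in tail, which did not pass the test, beside 0.46 in intestine.

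Tests of the difference in T3 effect between TRDKO and WT, by the interaction term of edgeR, gave -0.72 for retn.1 in tail, and -1.37 for psmb9 in intestine and -2.53 in tail.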

How the results depend on the processing

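Asking for at most 1/50 of the other genotype left 18 intestinal and 14 tail genes near absent in TRDKO, against 29 and 24 at 1/20, and asking for at least 2 CPM left 21 tail genes with the genotypes exchanged, against 41. Leaving out 1 library at a time moved these counts over 27 to 30 and 21 to 24, and, with the genotypes exchanged, over 45 to 48 and 37 to 43. Calls over all genes then ranged over 7962 to 11185 (TRDKO control against WT control), 6563 to 10194 (TRDKO T3 against WT T3) and 8526 to 11235 (T3 in WT) in intestine, and over 11859 to 12457, 10398 to 11205 and 11086 to 11799 in tail. Within 0.25 Mb of the genes 57.1% of intestinal genes were called, against 65.4% within 1 Mb. Upper-quartile scaling moved the split of higher and lower genes in intestine TRDKO control to 5620 and 3538, against 4505 and 4451, and in intestine WT T3 to 5410 and 4070. In tail it gave 7103 and 5394 for TRDKO control and 6888 and 5068 for WT T3. Within each organ, replicates with the same number did not deviate together across groups, with correlations from -0.031 to 0.028 and none over 0.1. The numbers were therefore not taken to pair the groups of an organ, and pairing between the organs was not tested. With a replicate block, 8773, 7441 and 9238 genes were called in intestine and 12373, 11082 and 11731 in tail, in the order given above.

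Of 1070 values of 61 single-gene tests, 1030 kept their side of the threshold, 32 lost it, 8 gained it and 0 reversed, over 10 tests. Among them LOC108644447 in intestine WT T3 had -0.07 with upper-quartile scaling (adjusted p = 0.265 by edgeR), LOC105947979 had 0.26 without WT T3 replicate 1, LOC100496324 had 0.22 without WT control replicate 2, and svep1l passed with upper-quartile scaling at 0.28. The cause was not tested. Depth limits the near absence to the floors given, and the 8 genes tested in tail say nothing of svep1l and LOC100496324 there.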
